A study of Mus musculus with 10 samples.

Results

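The genes described here encode the sarcomere, the contractile unit of striated muscle, and the Z-disc, the plate in which the thin filaments of neighbouring sarcomeres are anchored. They are a named set of 41 genes of 40690 in the count table, found there by gene symbol, and all 41 were present. The set was drawn up with earlier results of these data known. The comparison was between the heart ventricles of 5 sham-operated and 5 naive mice. All 10 were male C57BL/6 mice aged 10 weeks, with no transgene or drug given in the labels. The sham mice had the control operation for cardiac ischemia-reperfusion, in which a coronary artery is blocked and reopened, and the naive mice had no operation. How long after the operation hearts were collected is not stated in the labels. The comparison asks how the transcripts of the contractile apparatus differ after the control surgery itself. Polyadenylated RNA was counted per gene, and levels are given in CPM (counts scaled to a common library total, here with TMM, a factor per library that takes most genes as unchanged). Nothing says that the libraries of a group came from separately treated animals beyond their listing as separate samples, so p-values measure only the spread between these samples.

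In a sarcomere, myosin heavy and light chains form the thick filament and pull on thin filaments of actin, which are switched on by calcium through troponin and tropomyosin. Titin spans from Z-disc to M-band as a spring, and proteins of the Z-disc both hold the lattice and sense stretch. The heart exchanges isoforms of these proteins during development and under load. In the adult mouse ventricle the fast alpha myosin heavy chain of Myh6 is the main form, and the beta chain of Myh7, the atrial light chains and skeletal actin are forms of the fetal ventricle, the atrium or skeletal muscle. A rise of such forms is known as the fetal gene programme. The muscle RING finger proteins Trim54, Trim55 and Trim63 are ubiquitin ligases or scaffolds that bind titin, and Trim63 marks sarcomere proteins for breakdown.

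Upstream sequence from RefSeq (GRCm38.p6) is printed for 4 of the genes that had an entry there. They are Myh6 and Myh7, which lie next to each other on chromosome 14, the skeletal myosin-binding protein gene Mybpc2, and Ttn. Their upstream bases are shown because the first 3 share a motif although Myh6 and the other pair moved in opposite directions, and because Ttn had the largest decrease. Each is written 5′ to 3′ on the strand of the gene and ends at the base before the annotated start, except that of Myh6, which was trimmed to 216 bases where an annotated exon begins. The Myh6 stretch lies upstream of the RefSeq start but inside the gene as GENCODE M21 places it, since a transcript annotated there begins further upstream; for that transcript the stretch is downstream of the start. Capitals mark the MCAT motif, bound by TEAD factors (CATTCC on either strand, here seen as GGAATG), in Myh7, Mybpc2 and Myh6, and a MEF2 motif in Ttn.
Myh7 promoter, chr14:54994627-54994876, minus strand: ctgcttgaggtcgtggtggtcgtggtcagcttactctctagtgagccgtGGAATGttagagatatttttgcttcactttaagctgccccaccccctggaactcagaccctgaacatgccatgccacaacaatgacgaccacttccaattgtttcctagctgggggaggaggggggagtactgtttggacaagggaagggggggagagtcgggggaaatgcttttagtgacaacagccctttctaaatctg
Mybpc2 promoter, chr7:44524670-44524919, minus strand: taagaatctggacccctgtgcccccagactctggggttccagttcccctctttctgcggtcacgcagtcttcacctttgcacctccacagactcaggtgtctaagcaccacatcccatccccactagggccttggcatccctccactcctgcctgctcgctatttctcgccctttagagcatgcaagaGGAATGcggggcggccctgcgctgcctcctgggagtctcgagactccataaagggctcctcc
Myh6 promoter, chr14:54966642-54966857, minus strand: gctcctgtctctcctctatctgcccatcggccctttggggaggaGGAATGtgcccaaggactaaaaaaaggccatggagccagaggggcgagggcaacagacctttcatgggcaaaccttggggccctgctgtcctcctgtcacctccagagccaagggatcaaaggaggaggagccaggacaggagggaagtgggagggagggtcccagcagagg
Ttn promoter, chr2:76982548-76982797, minus strand: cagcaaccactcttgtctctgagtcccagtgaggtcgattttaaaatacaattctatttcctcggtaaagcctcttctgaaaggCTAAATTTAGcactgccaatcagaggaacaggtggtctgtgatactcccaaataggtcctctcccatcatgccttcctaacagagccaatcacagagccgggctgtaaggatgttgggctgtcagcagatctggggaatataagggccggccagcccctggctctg

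Upstream entries were held for 36 of the 41 genes, and the 250 bases before each entered start were searched on both strands. A gene counted as a match if any of its entries matched, so genes with several starts had more sequence searched. Matches of different motifs may share bases and were counted separately. CATTCC was present in 14 of the 36 (38.9%), against 14.4% of 27025 genes. The CArG box bound by SRF was present in 9 (25.0%), against 1.62% of genes, and the MEF2 motif in 6 (16.7%), against 3.42%. E-boxes (CANNTG) were in 32 (88.9%) against 69.3%, the GATA motif AGATAA in 8 (22.2%) against 11.4%, and TATAAA in 8 (22.2%) against 14.3%. CATTCC stood before both of the genes with an entry that rose after sham surgery (Myh7 and Mybpc2), before 4 of 16 that fell and before 8 of 17 that did not pass the test. A match describes the letters only and was not tested against the change in expression.

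Naive libraries held 9683181 to 17577906 counted reads and sham libraries 10654107 to 21537135. In the shallowest library 3 counts equal 0.357 CPM, a floor that covers counting error only. TMM factors were 0.870 to 0.975 in naive and 1.04 to 1.15 in sham libraries, with no overlap. Because of this gap the scaling bears on every direction given here: with library size alone the median log2 fold change of all genes moved by 0.26, from -0.05 to 0.22. Cardiomyocyte markers outside the sarcomere were 18 genes such as Ckm and Ryr2. They summed to 43440 to 48382 CPM in naive and 32546 to 38262 CPM in sham libraries. The tissue thus matched heart muscle, and these markers do not tell ventricle from atrium. Of 8 atrial markers 5 were tested: Nppa rose from 45.2 ± 6.10 to 82.3 ± 34.5 CPM (adjusted p = 0.0310, edgeR) and Dkk3 from 3.14 ± 0.911 to 17.6 ± 4.35 CPM (adjusted p = 1.39e-07), Stard10 fell, and Kcnj3 and Nr2f2 did not pass. The other 3 were too low to test: Sln had 0 counts over all naive and 1 over all sham libraries, Bmp10 7 and 5, and Mybphl 20 and 32. Both Nppa and Dkk3 are also made outside the atria, and their part in the isoform results was not tested.

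After sham surgery, all 7 adult thick filament genes, 3 of 7 adult thin filament genes, 7 of 16 Z-disc genes and all 3 muscle RING genes fell, and the isoforms Myh7 and Mybpc2 and the Z-disc gene Tcap rose. Of the 41 genes, 40 passed the filter on low counts and Tnni1 did not. With edgeR's quasi-likelihood test (Benjamini-Hochberg adjusted p under 0.05 over 13622 genes), 20 of the 40 fell (50.0%), 3 rose (7.5%; Myh7, Mybpc2 and Tcap) and 17 did not pass. Of all genes tested, 15.5% fell and 17.2% rose, 32.7% in either direction. The median log2 fold change (sham minus naive) was -0.32 over the 40 genes and -0.05 over all genes, and 33 of the 40 were below 0. In 15 genes all 5 sham libraries lay below all 5 naive libraries, a pattern seen in 9.18% of all genes, and in 0 genes did all sham libraries lie above, against 13.6% of all genes.

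How many genes were called changed with the scaling. When libraries were scaled by their totals alone (library size alone), 6 of the 40 genes rose (Myh7, Mybpc2, Tcap, Myl4, Ankrd1 and Fhl1) and 3 fell (Ttn, Myoz2 and Myot). Of all 13622 genes, 4473 rose and 283 fell in that setting. The median of the 40 genes was -0.05, against 0.22 for all genes, and 15 of the 40 were above 0. With the total count of protein-coding genes as library size, 13 fell and 4 rose, against 844 and 3349 of all genes. The median of the 40 genes minus that of all genes was -0.27; other library factors shift all genes nearly alike, so this distance is set by construction and does not test the scaling. Summed over the 41 genes, 10.6% ± 0.695 (SD, n = 5) of all counts fell on them in naive and 10.1% ± 0.574 in sham libraries, ranges that overlap. Of the counts on protein-coding genes they took 12.6% ± 0.734 in naive and 11.1% ± 0.676 in sham libraries.

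Markers of other cell types moved between the groups. All 10 macrophage markers rose, and their sum was 436 to 534 CPM in naive and 1343 to 1665 CPM in sham libraries. Of 11 fibroblast markers 8 rose, with sums of 2913 to 3660 and 10878 to 17819 CPM. The rise of that sum was mainly collagen I: Col1a1 averaged 601 CPM in naive and 8598 in sham libraries, and Col1a2 317 and 3159. Dcn, Gsn and Pi16 did not pass, Gsn and Pi16 with log2 fold changes below 0. Fibroblast number was not measured. Of 18 cardiomyocyte markers outside the sarcomere 13 fell and 0 rose, with a median log2 fold change of -0.44. Of 8 endothelial markers 3 fell (Kdr, Tek and Cdh5; Kdr by most, -0.55) and 0 rose, with a median of -0.17 and sums of 1268 to 1534 CPM in naive and 1154 to 1271 CPM in sham libraries. Of 5 smooth muscle markers Tagln rose and 4 did not pass, with sums of 621 to 726 and 619 to 791 CPM. The part of these shifts in the lower sarcomere transcripts was not tested, and in whole tissue fewer cardiomyocytes and less RNA per cardiomyocyte cannot be told apart.

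**Figure D1:**
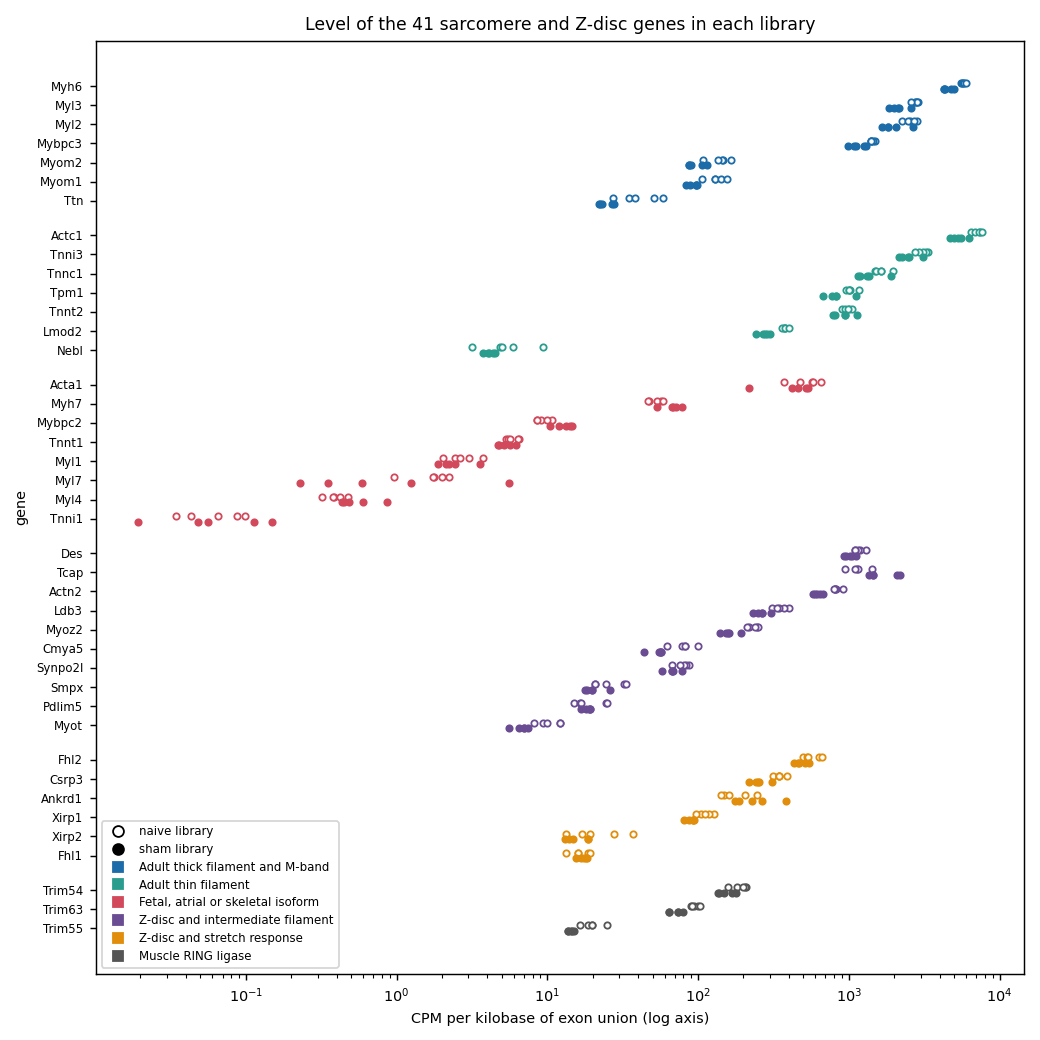
Each point is a library's level in CPM per kilobase of exon union, on a log axis, for the 41 genes grouped by class (open points naive, filled points sham, n = 5 each). Levels span from Actc1 and Myh6 at the top to Tnni1 below 1 CPM per kilobase, and filled points lie left of open points for most adult thick filament genes.

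Compared per kilobase of exon, the naive ventricle was dominated by adult isoforms. Actc1, the cardiac actin, stood at 7135 CPM per kilobase and Myh6 at 5747, followed by Tnni3 at 3082, Myl3 at 2774 and Myl2 at 2558. The beta myosin gene Myh7 was at 52.5, Mybpc2 at 9.36 and the atrial light chain Myl4 at 0.397 CPM per kilobase. Titin, the longest transcript of the set, was at 42.0 on that scale although it had 4904 CPM. In sham libraries the order at the top was the same, with Actc1 at 5356 and Myh6 at 4536 CPM per kilobase. The divisor was the union of all annotated exons, so the order between genes also depends on the annotation. Tnnt2 had 7608 CPM in naive libraries but 981 per kilobase on 7752 exon bases. Tnni3 had 6358 CPM on 2063 exon bases.

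**Figure D2:**
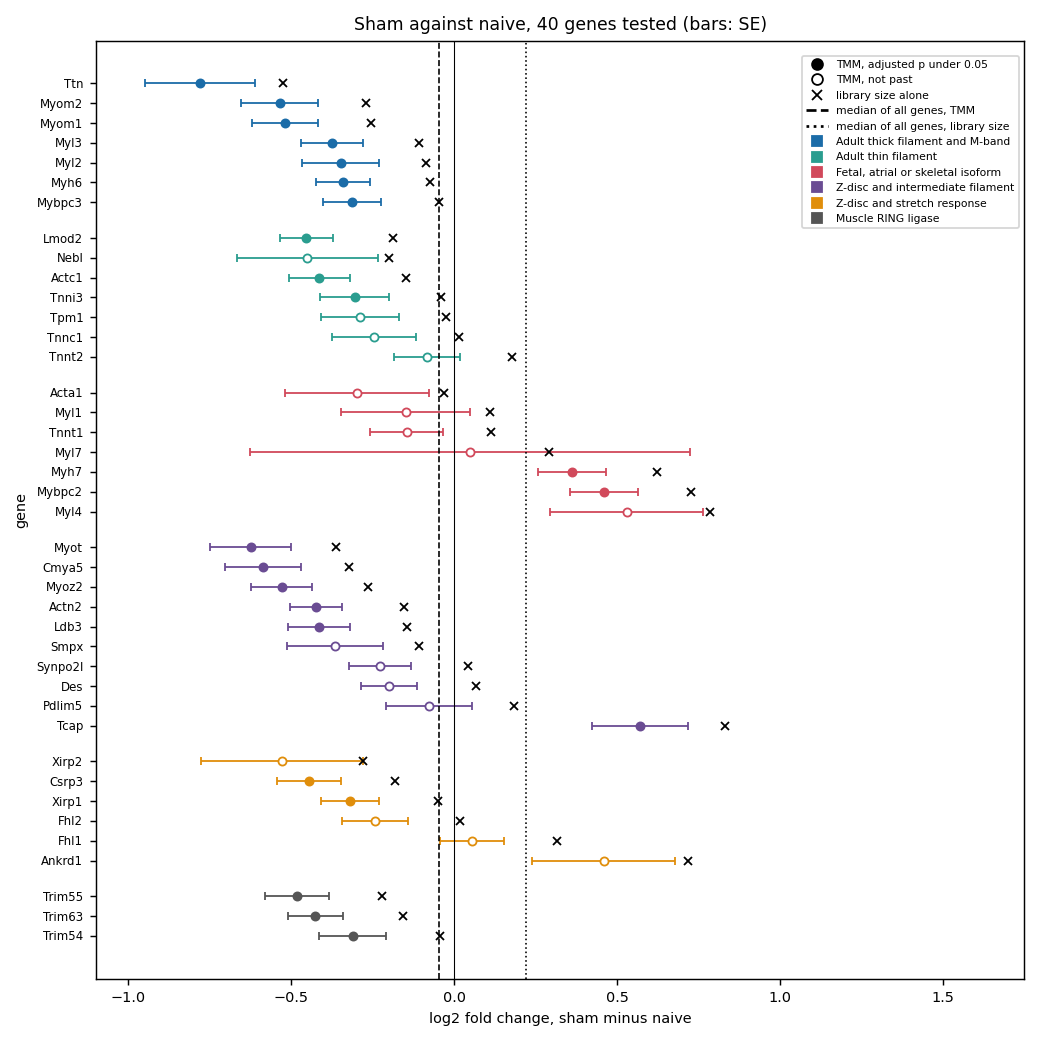
Log2 fold changes (sham minus naive) of the 40 genes tested, with SE bars (filled points passed the test with TMM) and crosses for library size alone. Dashed and dotted lines are the medians of all genes, -0.05 with TMM and 0.22 with library size, and Tcap, Mybpc2, Myh7 and Myl4 lie right of that line in both scalings while Ttn, Myot and Cmya5 lie left of it.

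All 7 adult genes of the thick filament and M-band fell, with a median log2 fold change of -0.37. Myh6, the alpha myosin heavy chain and the most counted gene of the set, lies on chromosome 14 from 54941921 to 54966927, minus strand. It was at 37527, 38051, 38539, 39000 and 40143 CPM in naive 1 to 5 and at 33350, 32273, 29323, 28788 and 28811 CPM in sham 1 to 5. Every sham library was below every naive library, with means of 38652 ± 998 and 30509 ± 2147 CPM (SD, n = 5). The sham level was 0.789 times the naive level (log2 fold change -0.34 ± 0.08 SE, adjusted p = 0.00466, edgeR).

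Light chains and the myosin-binding protein followed. Myl3, the ventricular essential light chain, was at 5717, 5859, 5640, 5838 and 5293 CPM in naive and 4373, 4346, 3790, 5283 and 4068 CPM in sham libraries, with no overlap (-0.37 ± 0.09, adjusted p = 0.00630). Mybpc3, cardiac myosin-binding protein C, was at 5821 to 6184 CPM in naive and 4131 to 5381 in sham libraries, again with no overlap (-0.31 ± 0.09, adjusted p = 0.0131). Myl2, the regulatory light chain, was at 4386, 4997, 4794, 5518 and 5243 CPM in naive and 3564, 3565, 3238, 5174 and 4036 in sham libraries. Sham 4 was within the naive range for Myl2, and the change (-0.35 ± 0.12, adjusted p = 0.0342) did not pass in 8 of 10 fits that each left out 1 library (adjusted p 0.0534 to 0.107). In the same fits the call on Mybpc3 was lost without sham 5 (adjusted p = 0.0592).

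Ttn, the titin gene (chromosome 2, 76703980 to 76982547, minus strand), had the largest decrease of the 40 genes, to 0.582 times the naive level (-0.78 ± 0.17, adjusted p = 0.00249). It was at 3183, 4071, 4484, 5925 and 6854 CPM in naive 1 to 5 and at 2589, 2599, 2704, 3143 and 3230 CPM in sham 1 to 5. Naive 1 lay below sham 5, and the naive libraries spread far more than the sham libraries (SD 1473 against 309 CPM). Long transcripts shared that spread: over the 5 longest genes of the set (Ttn, Nebl, Xirp2, Cmya5 and Myom1) the median log2 deviation from the group mean was -0.57 in naive 1 and 0.54 in naive 5, and -0.13 to 0.11 in sham libraries. Its part in the Ttn result was not tested. The removal of naive 1 and sham 4 together was chosen after seeing the data. It gave Ttn a log2 fold change of -0.91 (adjusted p = 0.00106). Without naive 5 alone, the highest naive library for Ttn, the decrease shrank to -0.63 and still passed.

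The M-band proteins Myom1 and Myom2, which cross-link thick filaments at the middle of the sarcomere, fell by similar amounts. Myom1 was at 1117, 1356, 1362, 1496 and 1620 CPM in naive and 1021, 1031, 921, 864 and 1011 CPM in sham libraries, with no overlap (-0.52 ± 0.10, adjusted p = 9.83e-04). Myom2 was at 952, 1472, 1300, 1277 and 1210 CPM in naive and 1016, 939, 770, 792 and 768 CPM in sham libraries, where naive 1 lay below sham 1 (-0.54 ± 0.12, adjusted p = 0.00245). With library size alone Ttn still fell (-0.53, adjusted p = 0.0407), and the other 6 adult thick filament genes were below 0 without passing (-0.05 to -0.27).

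Of 7 adult thin filament genes, 3 fell and 4 did not pass, with a median of -0.31. Actc1 was at 11962, 10479, 11106, 11754 and 12421 CPM in naive and 7624, 9045, 8048, 10080 and 8530 CPM in sham libraries. The groups did not overlap and the sham level was 0.751 times the naive level (-0.41 ± 0.09, adjusted p = 0.00307). Lmod2, leiomodin, which lengthens thin filaments, had the smallest adjusted p of the 40 genes. It was at 742, 732, 718, 748 and 796 CPM in naive and 593, 568, 479, 551 and 537 in sham libraries (0.730 times, -0.45 ± 0.08, adjusted p = 4.34e-04).

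The troponin genes were less uniform. Tnni3, the inhibitory subunit, was at 6911, 6700, 6439, 6077 and 5664 CPM in naive and 5081, 5145, 4431, 6442 and 4624 in sham libraries, with sham 4 inside the naive range (-0.31 ± 0.11, adjusted p = 0.0369). Its call was lost in 7 of the 10 fits that left out 1 library (adjusted p 0.0576 to 0.107). Tnnt2, which anchors troponin to tropomyosin, averaged 7608 ± 445 CPM in the naive and 7176 ± 1046 CPM in the sham group (-0.08 ± 0.10, adjusted p = 0.567). Tnnc1, the calcium sensor, was at 1562, 1581, 1707, 2032 and 1691 CPM in naive and 1236, 1427, 1200, 1995 and 1368 in sham libraries (-0.25 ± 0.13, adjusted p = 0.162). Tpm1, alpha-tropomyosin, was at 6570, 6183, 6524, 7622 and 6521 CPM in naive and 4990, 5348, 4393, 7252 and 5363 in sham libraries (-0.29 ± 0.12, adjusted p = 0.0749). Sham 4 was the highest sham library for all 4 of these genes, and without it Tnnc1 and Tpm1 passed as lower (adjusted p = 0.00962 and 0.00425). Nebl, nebulette, which binds actin at the Z-disc, was at 48.5, 73.8, 76.6, 89.7 and 142 CPM in naive and 57.3 to 68.3 in sham libraries (-0.45 ± 0.22, adjusted p = 0.134), where naive 1 was lowest and naive 5 highest. Without naive 1 it passed (-0.60, adjusted p = 0.0121), and without naive 5 it was -0.20 (adjusted p = 0.294).

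**Figure D3:**
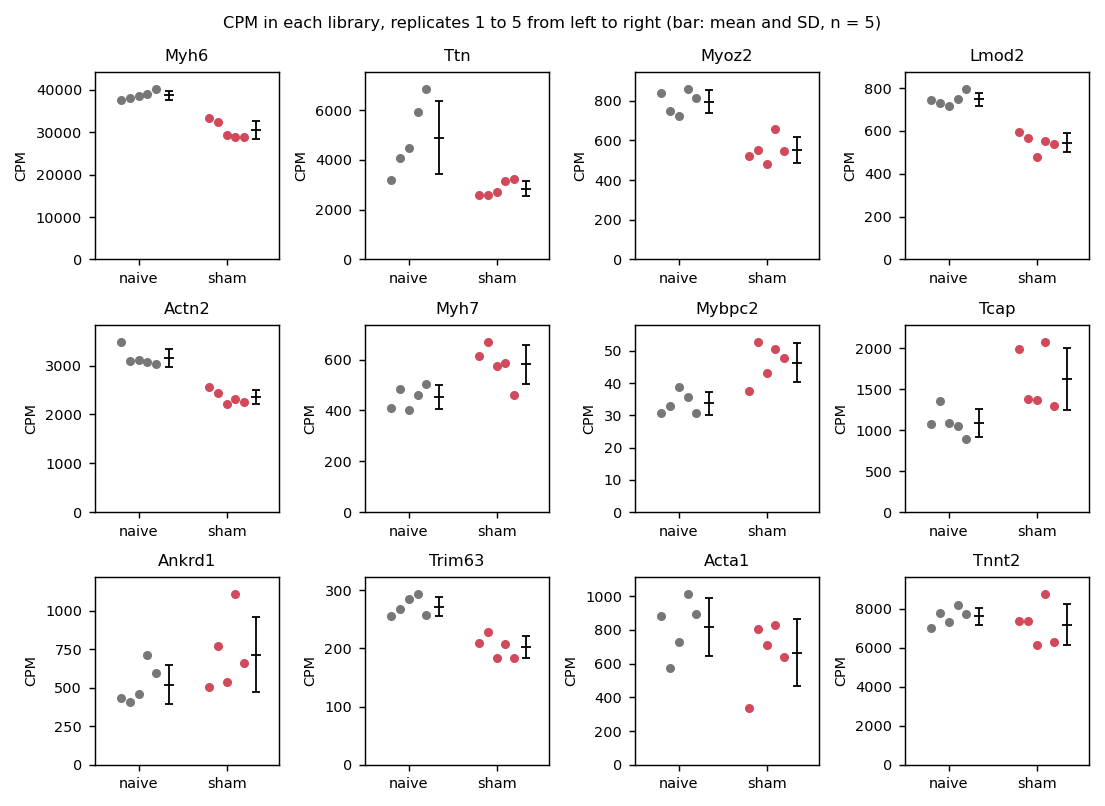
CPM of 12 genes in each library (axes start at 0; grey naive, red sham, bars mean and SD, n = 5). Myh6, Myoz2, Lmod2, Actn2 and Trim63 separate the groups downward, Tcap, Mybpc2 and Myh7 are higher in sham with overlap, and Ttn shows the wide spread of the naive libraries.

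Of 8 fetal, atrial and skeletal isoforms 7 were tested: 2 rose (28.6%; Myh7 and Mybpc2), 0 fell and 5 did not pass. Of all genes tested, 17.2% rose and 15.5% fell. The median log2 fold change of the 7 isoforms was 0.05. That median is the value of Myl7, which rests on sham 4 and was -1.30 without it. Of the 7 isoforms, 3 were below 0, and the difference from the adult forms as a group was not tested. Myh7, the slow beta myosin heavy chain (chromosome 14, 54970684 to 54994626, minus strand), was at 409, 486, 400, 461 and 505 CPM in naive and 612, 670, 575, 586 and 462 CPM in sham libraries. Only sham 5 lay within the naive range, and the sham level was 1.29 times the naive level (0.36 ± 0.10, adjusted p = 0.0141). With a correction for GC content it was 0.27 (adjusted p = 0.0603). Of the exon bases of Myh7, 13.3% are shared with Gm31251 on the opposite strand, and reads common to the similar Myh6 and Myh7 may have been split or lost, so both counts are uncertain.

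Mybpc2, the fast skeletal form of myosin-binding protein C (chromosome 7, 44501699 to 44524656, minus strand), was at 30.7, 33.0, 38.9, 35.7 and 30.7 CPM in naive and 37.6, 52.9, 43.2, 50.7 and 47.7 CPM in sham libraries. Sham 1 lay just below naive 3, and the rise was 1.37-fold (0.46 ± 0.10, adjusted p = 0.00317). Myl4, the atrial and fetal essential light chain, was at 1.78, 1.48, 2.21, 1.96 and 1.77 CPM in naive and 2.25, 2.78, 2.01, 4.02 and 2.08 CPM in sham libraries (0.53 ± 0.24, adjusted p = 0.0980). It passed with library size alone (0.79, adjusted p = 0.0132), and without sham 4 it was 0.34 (adjusted p = 0.253). Acta1, the skeletal actin and a well-known fetal marker in the heart, was at 881, 572, 726, 1011 and 892 CPM in naive and 335, 805, 707, 828 and 641 CPM in sham libraries (-0.30 ± 0.22, adjusted p = 0.337). Its near-identity to Actc1 makes its count uncertain as well.

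Other minor isoforms were scarce. The skeletal light chain Myl1 averaged 5.76 ± 1.35 CPM in the naive and 5.08 ± 1.37 CPM in the sham group, and slow skeletal troponin T (Tnnt1) at 12.9 ± 1.16 and 11.7 ± 1.37 CPM. Neither passed (adjusted p = 0.605 and 0.352). The atrial light chain Myl7 was at 1.31, 1.05, 1.03, 1.18 and 0.568 CPM in naive and 0.346, 0.208, 0.134, 3.30 and 0.734 CPM in sham libraries. Sham 1 to 3 had 2 to 4 counts and sham 4 had 74, so the level in sham rests on sham 4 (0.05 ± 0.68, adjusted p = 0.968); without it the log2 fold change was -1.30 (adjusted p = 0.0401). Slow skeletal troponin I (Tnni1), the fetal form, had 1 to 12 counts per library and was not tested.

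**Figure D4:**
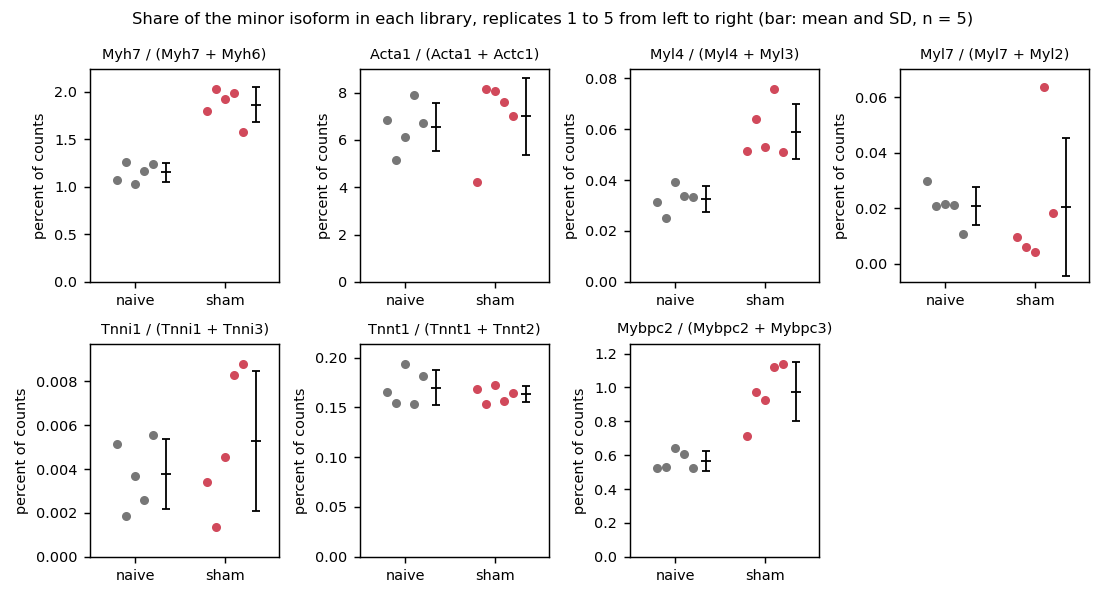
Counts of each minor isoform as percent of its sum with the adult form in each library (grey naive, red sham, bars mean and SD, n = 5). Every sham library lies above every naive library for Myh7, Myl4 and Mybpc2, and the other 4 pairs overlap.

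The share of a minor isoform within its pair needs no scaling between libraries. Myh7 made up 1.08%, 1.26%, 1.03%, 1.17% and 1.24% of Myh6 plus Myh7 counts in naive 1 to 5, and 1.80%, 2.04%, 1.92%, 1.99% and 1.58% in sham 1 to 5. The means were 1.16% ± 0.101 and 1.87% ± 0.184 (SD, n = 5; exact two-sided permutation test, p = 0.00794, adjusted over 7 pairs 0.0185). The alpha chain remained by far the main form in every library. Mybpc2 made up 0.522%, 0.531%, 0.645%, 0.608% and 0.524% of its sum with Mybpc3 in naive, and 0.711%, 0.974%, 0.928%, 1.12% and 1.14% in sham libraries (exact p = 0.00794, adjusted 0.0185). Myl4 rose from 0.0325% ± 0.00505 to 0.0591% ± 0.0108 of Myl4 plus Myl3 (exact p = 0.00794, adjusted 0.0185), on 120 counts in naive and 237 in sham libraries. For these 3 pairs every sham share was above every naive share, and 0.00794 is the smallest p that 5 against 5 can give.

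No difference was shown for the other 4 pairs. Acta1 took 6.56% ± 1.01 of actin counts in naive and 7.01% ± 1.63 in sham libraries (exact permutation p = 0.595, adjusted 0.694), with sham 1 lowest of all 10 at 4.21%. The difference of 0.451 percentage points rested on single libraries: it was 1.15 without sham 1 (exact permutation p = 0.0714, adjusted 0.125) and 0.104 without naive 2 (exact permutation p = 0.921). The share of Tnnt1 in troponin T was 0.170% ± 0.0177 and 0.163% ± 0.00792 (exact permutation p = 0.50, adjusted 0.694). For Tnni1 it was 0.00377% and 0.00529% (exact permutation p = 0.373, adjusted 0.653), on 15 and 28 counts. The share of Myl7 was 0.0209% in naive and 0.0203% in sham libraries (exact permutation p = 0.992), where sham 4 alone was at 0.0638%. Without sham 4 the difference in the Myl7 share was -0.0114 percentage points (exact permutation p = 0.0476, adjusted 0.0833), so the near-equal means rest on that library. Whether the shares of beta myosin and skeletal actin changed differently was not tested.

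Of 10 structural genes of the Z-disc and intermediate filaments, 5 fell, 1 rose and 4 did not pass, with a median of -0.39. Actn2, alpha-actinin, the main cross-linker of the Z-disc, was at 3489, 3093, 3122, 3081 and 3028 CPM in naive and 2559, 2445, 2203, 2322 and 2256 CPM in sham libraries, without overlap (0.745 times, -0.42 ± 0.08, adjusted p = 8.48e-04). Myoz2, calsarcin-1, which ties calcineurin to the Z-disc (chromosome 3, 123006206 to 123035015, minus strand), was at 838, 746, 722, 859 and 813 CPM in naive and 523, 551, 479, 657 and 545 CPM in sham libraries. It did not overlap either (0.693 times, -0.53 ± 0.09, adjusted p = 4.70e-04) and fell with library size alone too (-0.26, adjusted p = 0.0384).

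Ldb3, the actinin-binding protein ZASP or Cypher, was at 2440, 2276, 2119, 1899 and 2030 CPM in naive and 1868, 1630, 1633, 1414 and 1527 in sham libraries (-0.42 ± 0.10, adjusted p = 0.00368). Cmya5, myospryn, was at 735, 974, 924, 965 and 1179 CPM in naive and 656, 673, 666, 518 and 668 in sham libraries (-0.59 ± 0.12, adjusted p = 0.00111), and 21.7% of its exon bases are shared with A630019I02Rik on the opposite strand. Myot, myotilin, which binds actinin and filamin, was at 20.8, 21.9, 18.0, 26.7 and 26.6 CPM in naive and 14.3, 16.5, 12.3, 15.4 and 15.5 in sham libraries (0.648 times, -0.63 ± 0.12, adjusted p = 0.00109). In each of these 3 genes the groups did not overlap. Myot also fell with library size alone (-0.36, adjusted p = 0.0487).

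Tcap, telethonin, which caps the Z-disc end of titin, went the other way and had the largest increase of the 40 genes; the decreases of Ttn, Myot and Cmya5 were larger in size. The gene (chromosome 11, 98383811 to 98384953, plus strand) was at 1081, 1361, 1087, 1050 and 889 CPM in naive and 1991, 1378, 1366, 2083 and 1297 CPM in sham libraries. Sham 1 and sham 4 were far above the rest, sham 2 and sham 3 were just above naive 2, and sham 5 was below it. The rise was 1.48-fold (1094 ± 170 to 1623 ± 381 CPM, 0.57 ± 0.15, adjusted p = 0.00771) and passed under all 23 alternatives. Relative to the median of the 40 genes Tcap stood at 0.89 and its titin partner Ttn at -0.46 on the log2 scale.

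The other 4 structural genes did not pass. Desmin (Des), the intermediate filament that links Z-discs, averaged 4371 ± 323 CPM in the naive and 3803 ± 291 CPM in the sham group (-0.20 ± 0.09, adjusted p = 0.0892). Smpx, a small X-linked muscle protein, was at 59.8 ± 14.0 and 46.3 ± 7.30 CPM (-0.37 ± 0.15, adjusted p = 0.0678), and the actin-associated Synpo2l at 366 ± 35.5 and 312 ± 34.2 CPM (-0.23 ± 0.10, adjusted p = 0.0821). Pdlim5, a scaffold of the Z-disc, was at 173 ± 42.2 and 164 ± 9.20 CPM (-0.08 ± 0.13, adjusted p = 0.689). Des passed without sham 1, Synpo2l without naive 4, and Smpx without naive 1, naive 2 or sham 4, each as lower.

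The 6 Z-disc and stretch-response genes divided. Csrp3, the muscle LIM protein, fell from 841, 915, 927, 1036 and 925 CPM in naive to 646, 668, 586, 830 and 679 CPM in sham libraries, with no overlap (-0.45 ± 0.10, adjusted p = 0.00243). Xirp1, an actin-binding Xin repeat protein of the intercalated disc, fell from 743, 688, 610, 567 and 645 CPM to 551, 540, 537, 469 and 510 CPM, with no overlap (-0.32 ± 0.09, adjusted p = 0.0118). Ankrd1, the stretch-induced repeat protein CARP, was at 430, 409, 461, 711 and 595 CPM in naive and 505, 770, 540, 1108 and 658 CPM in sham libraries (0.46 ± 0.22, adjusted p = 0.131). Sham 4 was highest for Ankrd1, and 3 sham libraries lay inside the naive range; without sham 4 the value was 0.28 (adjusted p = 0.272).

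Xirp2 was at 159, 204, 230, 332 and 444 CPM in naive and 157, 168, 176, 223 and 223 CPM in sham libraries (-0.53 ± 0.25, adjusted p = 0.129), with the same wide naive spread as Ttn. For the LIM domain proteins, Fhl1 was at 61.6 ± 8.64 and 64.0 ± 4.35 CPM (0.05 ± 0.10, adjusted p = 0.715), and Fhl2 at 1087 ± 141 and 918 ± 88.8 CPM (-0.24 ± 0.10, adjusted p = 0.0794). Without naive 1, Xirp2 and Fhl2 passed as lower (adjusted p = 0.0316 and 0.0306), and without naive 5 Xirp2 was at -0.29 (adjusted p = 0.266). With library size alone Ankrd1 rose (0.72, adjusted p = 0.0202) and so did Fhl1 (0.32, adjusted p = 0.0369).

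All 3 muscle RING genes fell. Trim63 (MuRF1), the ligase of myosin and troponin breakdown, was at 255, 268, 285, 293 and 258 CPM in naive and 209, 227, 184, 208 and 183 CPM in sham libraries, with no overlap (0.744 times, -0.43 ± 0.08, adjusted p = 0.00114). Trim55 (MuRF2) was at 43.9, 49.7, 52.5, 52.9 and 66.1 CPM in naive and 36.6, 38.9, 38.3, 36.5 and 39.9 CPM in sham libraries, also with no overlap (-0.48 ± 0.10, adjusted p = 0.00145). Trim54 (MuRF3) was at 301, 295, 260, 287 and 227 CPM in naive and 257, 214, 197, 241 and 194 CPM in sham libraries, which overlapped (-0.31 ± 0.10, adjusted p = 0.0301). Its call was lost in 6 of the 10 fits that left out 1 library (adjusted p 0.0541 to 0.0988), and 26.6% of its exon bases are shared with Gm15469 on the opposite strand. With library size alone the values were -0.16, -0.22 and -0.04 and 0 of the 3 passed.

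**Figure D5:**
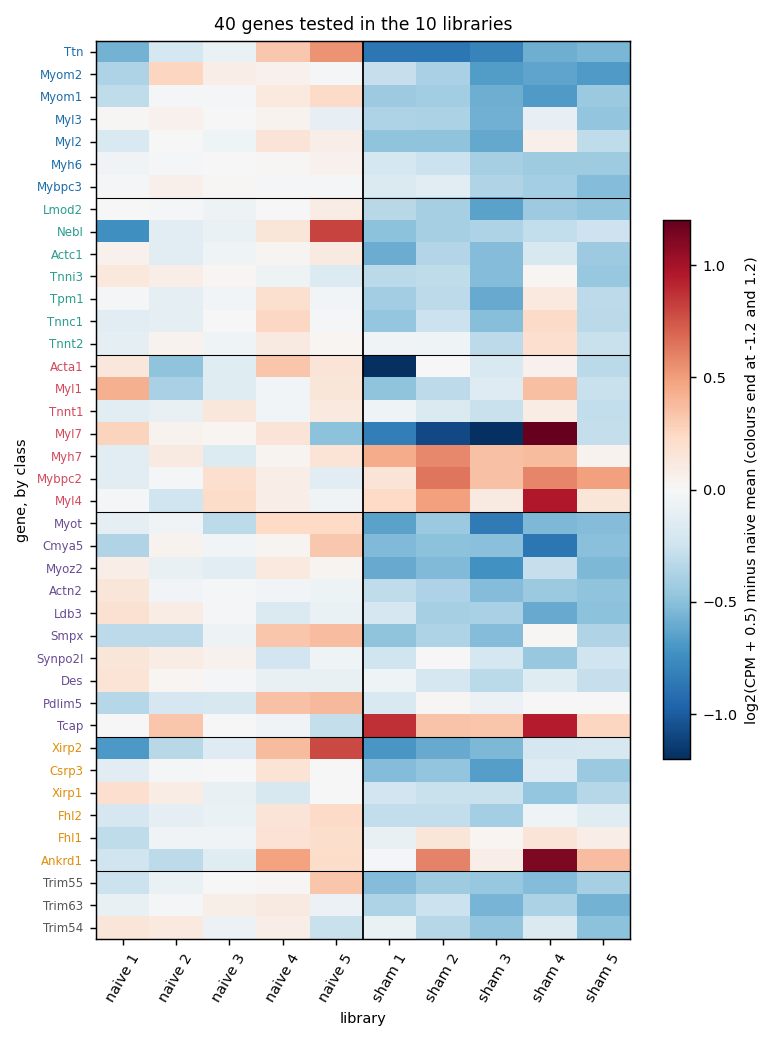
Log2(CPM + 0.5) of the 40 genes tested in each library minus the naive mean, by class (blue lower, red higher). Sham columns are blue for most adult filament and Z-disc genes and red for Myh7, Mybpc2, Myl4 and Tcap, and the long genes Ttn, Nebl and Xirp2 are blue in naive 1 and red in naive 5.

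Other sarcomere genes, from a list of 54 that holds none of the 41, were lower as well. Of 52 tested, 35 fell (67.3%, against 15.5% of all genes), 4 rose (7.69%, against 17.2%) and 13 did not pass. The median of the 52 was -0.42, against -0.05 for all genes. The smallest p-values among those that fell were for Klhl31 (-0.63 ± 0.09, adjusted p = 6.78e-05) and the muscle methyltransferase Smyd1 (-0.50 ± 0.08, adjusted p = 2.01e-04). Next were the myosin chaperone Unc45b (-0.46 ± 0.07, adjusted p = 2.04e-04) and the ubiquitin ligase adaptor Asb2 (-0.57 ± 0.09, adjusted p = 2.08e-04). The 4 that rose were the tropomyosins Tpm2, from 30.7 ± 2.84 to 72.9 ± 12.2 CPM (1.25 ± 0.12, adjusted p = 7.06e-07), and Tpm3, from 27.6 ± 1.88 to 51.6 ± 3.56 CPM (0.91 ± 0.08, adjusted p = 5.91e-07), with Pdlim7 (0.49 ± 0.08, adjusted p = 1.20e-04) and Pdlim3 (0.74 ± 0.13, adjusted p = 5.81e-04). These 4 genes are also expressed outside cardiomyocytes, and the part of other cells in their rise was not tested. With library size alone 5 of the 52 fell and 8 rose, against 283 and 4473 of all 13622 genes.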

How the data were processed

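Ventricular RNA of 5 naive and 5 sham-operated mice was poly(A)-selected and made into single-end libraries without strand marks, per the labels' protocols. The authors deposited raw read counts per Ensembl gene, for which the file headers name HTSeq and GRCm38. Percent GC per gene is also deposited, per the file headers, and served only a GC correction. Bowtie2, TopHat2 2.1.1, TopHat, DESeq and edgeR are also named in the submitters' processing notes; no label or header states the annotation release, counting mode or strand setting. Libraries without strand marks leave reads of overlapping antisense genes unresolved.

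Of 41264 rows, 574 repeated an identifier with identical counts and were collapsed to 40690 genes; 0 rows named no gene. filterByExpr (minimum count 10, minimum total 15) left 13622. They were scaled with TMM and tested with edgeR 4.0.16 (quasi-likelihood F test, robust, group alone) in R 4.3.3, at a Benjamini-Hochberg adjusted p under 0.05 over all genes tested; values after ± are SE for log2 fold changes and SD for levels. Isoform shares were tested with exact permutation. Gene positions follow GENCODE M21 (GRCm38). The members, classes and lists were chosen with earlier results of these data known, and support nothing independently. Named were all 41 members and up to 4 other sarcomere genes of smallest p in each direction. Members whose call was made or changed have values in every library or, for some, only ranges or means. On simulated counts for 13534 genes in this comparison, the test found 49.3% of genes changed 1.5-fold, 78.8% of those changed 2-fold and 100% of those changed 4-fold, with 8 of 156 calls false. The simulation changed only 67, 66 and 63 tested genes at these folds, in random directions, whereas 32.7% of genes were called in the data. It held no gap in scaling between the groups, so its false calls do not cover error from the scaling. The lowest chi-square per degree of freedom between libraries of a group was 10.1, so none was a repeat of another. Alternatives were DESeq2 1.42.0, limma 3.58.1 voom, RLE factors, library size alone, factors computed without sarcomere genes, other filters, no robust estimation, GC correction, the replicate number as a block, and each library left out.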

Additional observations from a re-analysis of the deposited data

Results flagged for a closer look

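In 94 groups of 5 values checked, 7 held a library far from the others by Dixon's test (critical value 0.71), where chance gives about 1 in 20. Sham 4 was involved in 5 of them. It was highest for Tnnc1 at 1995 CPM (next 1427), for Myl7 at 3.30 CPM (next 0.734), for Smpx at 58.9 CPM (next 45.3) and for the Myl7 share at 0.0638% (next 0.0182%), and lowest for Cmya5 at 518 CPM (next 656). Naive 4 was highest for Tpm1 at 7622 CPM (next 6570), and naive 1 for Actn2 at 3489 CPM (next 3122).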

How the results depend on the processing

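Over 23 alternatives, 5 of the 23 called members passed under every one (Ttn, Myoz2 and Myot lower, Tcap and Mybpc2 higher), and 15, these included, under every one other than library size alone. With library size alone 6 members were higher and 3 lower, against 4473 higher and 283 lower of all genes, and 8 higher and 5 lower of the other sarcomere genes; 17 of the 20 lower members did not pass. With limma voom 3269 of all genes were lower. Chosen after seeing the data were protein-coding library size, with 13 members, 844 of all genes and 22 other sarcomere genes lower, and the removal of naive 1 and sham 4. Without those 2 libraries the sham minus naive shares were 0.661 percentage points for Myh7, 0.0220 for Myl4 and 0.361 for Mybpc2, each with adjusted p = 0.0667 by the exact permutation test, where 4 against 4 gives at least 0.0286 before adjustment. Leaving out each library in turn gave 16 to 24 lower and always 3 higher members. Myl7 reversed to -1.45 with limma voom, and with each library left out in turn ran from -1.30 (without sham 4) to 0.29. Replicate numbers were not taken to pair the libraries, since 3 of 5 same-number pairs correlated above 0.1 (0.008 to 0.293) and 2 did not; 6 of 10 libraries correlated best with their own number, a hint of pairing from the data and not from the design. With the replicate block 27 members were lower and 4 higher (Ankrd1 added as higher, 0.43, edgeR adjusted p = 0.00510, and Tnnc1, 0.0159, Tpm1, 0.00912, Des, 0.0383, Smpx, 0.00803, Synpo2l, 0.0145, Xirp2, 0.00796, and Fhl2, 0.0147, as lower), 2801 and 2592 of all genes, and 38 and 4 of the other sarcomere genes. Of the 17 members not past, 13 passed under at least 1 alternative. The cause of these changes was not tested. Depth limits Tnni1, Myl7 and Myl4.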

Other observations

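Several striated muscle transcripts that are not among the 41 genes were near the limit of detection. The skeletal gene Pvalb had 8 counts over the naive and 89 over the sham libraries and was too low to test. The sum over 8 atrial markers was 124 to 172 CPM in naive and 146 to 225 CPM in sham libraries. That over 14 skeletal muscle markers was 32.8 to 48.6 and 28.6 to 36.7 CPM, and of the 9 tested Actn3, Casq1 and Cacna1s fell and 6 did not pass. Both sums include genes well above the limit of detection: in naive libraries Stard10 averaged 50.6, Nppa 45.2 and Cacna1s 21.8 CPM.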
